A study of Mus musculus with 6 samples.

Results

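The unfolded protein response and the integrated stress response were followed in mammary tumours of MMTV-PyMT mice through 10 genes, Atf4, Ddit3, Trib3, Chac1, Asns, Sesn2, Xbp1, Hspa5, Hsp90b1 and Herpud1. The genes were taken by symbol, matched to 11 of the 55487 gene rows, and were not picked on measured values by the rule itself. Ddit3 matched 2 rows, of which the second is a short overlapping model that had 0 counts in 5 libraries and 0.18 in vehicle replicate 3, and only the main row was used. All mice carried the polyoma virus middle T antigen under the mouse mammary tumour virus promoter, which drives it in mammary epithelium. Bulk tumour RNA was sequenced from 3 libraries of mice given DMHCA, a steroid that activates the liver X receptors, LXR, and from 3 libraries of vehicle mice. Treatment was oral, in gel cups, without a break from an age of 6 weeks. The labels give neither the age at collection nor the number of mice behind each group of 3 tumours. The p-values therefore rest on the variation among 6 libraries, some of which may be technical. The titles of a group share 1 unexplained code, so a source common to a group and the treatment cannot be told apart.

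When unfolded proteins build up in the endoplasmic reticulum (ER), the membrane sensors PERK, IRE1 and ATF6 start the unfolded protein response. PERK phosphorylates the translation factor eIF2, as do the kinases GCN2, PKR and HRI in answer to amino acid shortage, double-stranded RNA and haem or mitochondrial trouble, and this shared branch is the integrated stress response. It slows most translation but favours that of Atf4, whose protein switches on amino acid synthesis genes and, when stress lasts, Ddit3 (CHOP). IRE1 splices Xbp1 mRNA, and XBP1 and ATF6 raise ER chaperones and the machinery that removes misfolded proteins. Secretory epithelium such as that of the mammary gland depends on this system for protein folding.

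The promoters of 5 of these genes show the response elements through which the branches act, and are printed so that the ER-stress and ATF4 elements can be seen in place. They are the 250 bases before the start in RefSeq on GRCm38.p6, 5′ to 3′ on the strand of the gene, with the fixed letters of each matched element in capitals.
Hspa5, chr2:34771840-34772089, plus strand: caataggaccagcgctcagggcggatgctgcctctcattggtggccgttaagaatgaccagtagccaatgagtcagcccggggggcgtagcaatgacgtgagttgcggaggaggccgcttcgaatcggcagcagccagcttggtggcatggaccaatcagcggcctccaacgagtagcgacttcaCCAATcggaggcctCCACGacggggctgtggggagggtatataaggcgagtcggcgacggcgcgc
Hsp90b1, chr10:86705445-86705694, minus strand: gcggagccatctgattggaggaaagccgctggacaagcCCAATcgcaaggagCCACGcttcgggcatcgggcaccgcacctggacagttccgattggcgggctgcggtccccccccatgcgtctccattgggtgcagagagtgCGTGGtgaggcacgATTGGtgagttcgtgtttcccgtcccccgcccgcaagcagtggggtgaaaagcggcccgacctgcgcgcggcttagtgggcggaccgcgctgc
Herpud1, chr8:94386179-94386428, plus strand: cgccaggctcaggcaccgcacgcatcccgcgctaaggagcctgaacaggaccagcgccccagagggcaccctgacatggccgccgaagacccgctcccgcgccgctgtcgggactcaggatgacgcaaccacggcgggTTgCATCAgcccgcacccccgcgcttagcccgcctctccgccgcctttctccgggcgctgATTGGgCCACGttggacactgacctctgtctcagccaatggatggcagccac
Chac1, chr2:119350992-119351241, plus strand: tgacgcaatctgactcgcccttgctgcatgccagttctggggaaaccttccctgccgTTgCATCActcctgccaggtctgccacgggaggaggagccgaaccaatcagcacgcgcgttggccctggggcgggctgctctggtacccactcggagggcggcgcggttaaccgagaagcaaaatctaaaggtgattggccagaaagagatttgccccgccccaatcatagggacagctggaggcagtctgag
Asns, chr6:7693210-7693459, minus strand: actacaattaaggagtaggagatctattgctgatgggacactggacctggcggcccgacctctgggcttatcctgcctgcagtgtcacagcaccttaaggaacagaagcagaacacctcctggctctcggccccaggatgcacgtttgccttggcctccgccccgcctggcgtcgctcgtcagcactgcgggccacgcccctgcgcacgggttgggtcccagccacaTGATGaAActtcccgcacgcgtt
Both strands of the whole RefSeq window, from 250 bases before the start to 50 after it, were searched for 4 elements. The ER stress response element (ERSE, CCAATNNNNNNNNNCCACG), bound by ATF6 with NF-Y, was found in Hspa5 and Hsp90b1, with 1 and 2 matches, and in 0.119% of 32817 promoter windows. The related ERSE-II, ATTGG and CCACG with 1 base between them, was found in Herpud1 and in 0.0366% of windows. The C/EBP-ATF composite element (TGATGNAA), which ATF4 binds, was found in Asns, Chac1, Herpud1 and Trib3, where it lies after the start, and in 3.97% of windows. The core of the UPR element (TGACGTGG) overlaps the CCACG part of ERSE in letters. It matched 0 of the 10 genes and 0.677% of windows. A match is a run of letters and says nothing of binding in these tumours.

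Each library summed to between 36577451 and 42595799 estimated counts. Levels are given in CPM, counts scaled to the TMM-adjusted library total. The epithelial identity of the tissue was plain, since all 7 epithelial markers were detected and their summed level, led by the keratin Krt8, was 3706 to 4058 CPM with agonist and 3948 to 4621 with vehicle (CPM of the plain library total, as for all marker sums). Other cells differed widely between vehicle libraries. The 9 fibroblast markers summed to 6962 CPM in vehicle replicate 2 and 609 in vehicle replicate 3, around an agonist range of 3386 to 5310. The 11 plasma cell markers matter here because antibody-secreting cells run the unfolded protein response at a high level. They summed to 89.8 to 152 CPM with agonist and 97.3 to 107 with vehicle. Sdc1 was the most abundant of them, and the plasma cell receptor Tnfrsf17 was at 3 counts or fewer in every library. How much of this sum came from plasma cells was not tested. The 10 exocrine gland markers, led by Aqp5, had sums from 673 to 2019 CPM with agonist and from 588 to 2013 with vehicle. Mitochondrial transcripts took 6.19% to 6.98% of counts with agonist and 4.69% to 7.48% with vehicle. In bulk tissue, fewer cells of a type and less RNA per cell cannot be told apart.

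The comparison of agonist with vehicle tumours asks how LXR activation bears on the tumour transcriptome, and none of the 10 stress-response genes differed beyond the spread between libraries. All 10 passed the filter on low counts. Log2 fold changes were negative for Ddit3, Herpud1, Chac1, Trib3 and Atf4 and positive for Hspa5, Asns, Hsp90b1, Sesn2 and Xbp1, a split of 5 and 5 beside 50.7% negative among all tested genes. Their median was -0.02, and that of all 17396 tested genes -0.0049. At an adjusted p under 0.05 by edgeR 0 of the 10 were called, where 0% of all tested genes were, and at an unadjusted p under 0.05 again 0 of 10, beside 3.09% of all genes. DESeq2 and limma-voom also called 0 of the 10, beside 0.0172% (5 genes) and 0% of all genes. The DESeq2 shares here are over 29069 genes, as the filter on low counts was not applied to it. At an unadjusted p under 0.05, limma-voom had 1 of the 10, Ddit3, beside 6.96% of all genes, and DESeq2 had 0, beside 2.66%. Every agonist library lay below every vehicle library for 1 gene, Ddit3, beside 4.22% of all genes, and above for 0, beside 3.02%.

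**Figure D1:**
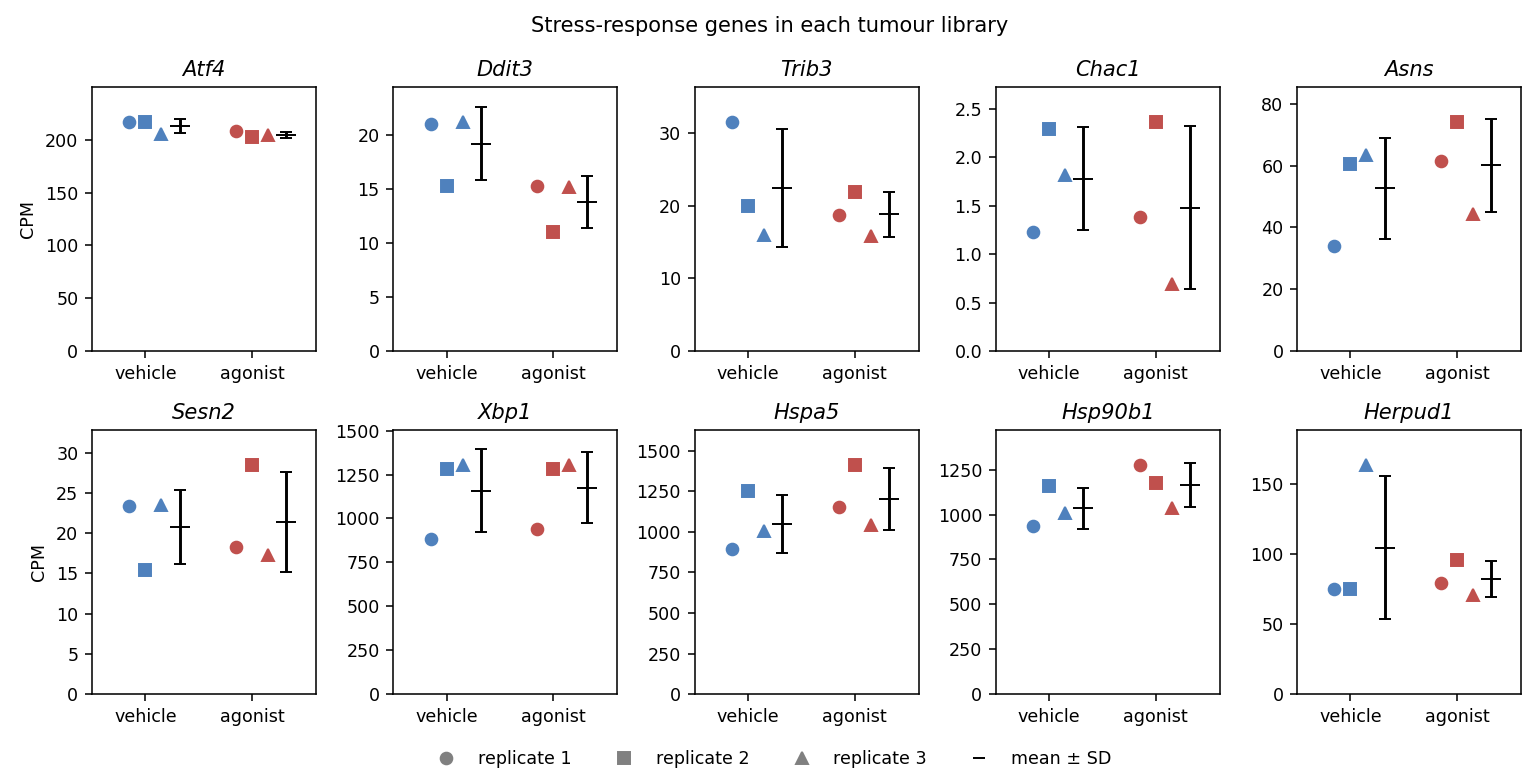
Level of each of the 10 genes in the 6 tumour libraries, in CPM on linear axes that start at 0. Symbols are replicates, black marks are the mean ± SD of 3 libraries, and Ddit3 alone shows groups that do not overlap, by 15.23 against 15.26 CPM.

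Atf4, the transcription factor at the centre of the integrated stress response, was the steadiest of the 10 genes by CPM. It lies on chromosome 15 (80255184 to 80257541, plus strand, GENCODE M21 on GRCm38). Its levels were 208, 202 and 204 CPM in the agonist libraries and 217, 217 and 206 in the vehicle libraries. All 6 libraries thus lay within 1.07-fold of each other. The within-group SD of log2 CPM was 0.034, smaller than that of all but 0.115% of tested genes. By TPM the libraries were farther apart, at 147, 157 and 148 with agonist and 173, 135 and 152 with vehicle. The log2 fold change was -0.06 ± 0.13 (SE), with a 95% interval of -0.36 to 0.25 (edgeR adjusted p = 0.99). Since ATF4 is controlled mainly at translation, its mRNA level is only part of its activity.

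Ddit3 encodes CHOP, the factor that ATF4 induces and that promotes cell death when stress persists. It is on the plus strand of chromosome 10, from 127290774 to 127296288, and overlaps Mars on the opposite strand over 68 bases. It was at 15.2, 11.03 and 15.1 CPM in the agonist libraries and at 20.97, 15.3 and 21.2 in the vehicle libraries. Vehicle replicates 1 and 3 stood above the rest, agonist replicate 2 was lowest, and vehicle replicate 2 was just above the highest agonist library, at 15.26 against 15.23 CPM. Mean CPM was 13.8 ± 2.40 under agonist and 19.1 ± 3.36 under vehicle (SD, n = 3). The log2 fold change of -0.47 ± 0.22 (95% interval -0.99 to 0.04) was the largest of the 10 in size, with an unadjusted edgeR p of 0.0673 and an adjusted p of 0.99. A smaller unadjusted p was found for 4.55% of all tested genes. With libraries left out it ran from -0.61 (edgeR adjusted p = 0.326, without vehicle replicate 2) to -0.33 (adjusted p = 0.985, without agonist replicate 2). By TPM, the authors' length-normalised unit, the groups overlapped, with 28.7, 22.6 and 29.6 against 45.9, 26.1 and 40.0. They also overlapped with DESeq2 size factors, with upper-quartile factors and with either other filter.

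Trib3 encodes a pseudokinase that ATF4 and CHOP induce and that feeds back on both. Its levels on chromosome 2 (152337422 to 152344032, minus strand) were 18.8, 21.9 and 15.8 CPM with agonist and 31.6, 20.02 and 15.9 with vehicle. Vehicle replicate 1 was 1.44-fold above the next library, and the other 5 libraries were mixed in order. Its log2 fold change of -0.26 ± 0.27 (edgeR adjusted p = 0.99) became 0.07 without vehicle replicate 1. Chac1 encodes an enzyme that breaks down glutathione and is a target of ATF4. It was the scarcest of the 10, with 1.38, 2.37 and 0.692 CPM with agonist against 1.23, 2.29 and 1.82 with vehicle, or 29 to 97 counts per library. Agonist libraries held both its highest and its lowest value, 3.42-fold apart. Its log2 fold change of -0.26 ± 0.53 has a 95% interval from -1.48 to 0.95, the widest of the 10, and without agonist replicate 3 it was 0.08.

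Asns, asparagine synthetase, is a classical ATF4 target that answers amino acid shortage. It lies on chromosome 6 (7675169 to 7693254, minus strand), and was at 61.5, 74.2 and 44.4 CPM with agonist and 33.9, 60.6 and 63.5 with vehicle. Agonist replicate 2 was highest and vehicle replicate 1 lowest, and the other 4 libraries overlapped. For Asns the log2 fold change was 0.19 ± 0.28 (95% interval -0.47 to 0.84), 0.37 without agonist replicate 3 and -0.05 without vehicle replicate 1. Sesn2 encodes sestrin 2, a leucine sensor that restrains mTORC1 and is induced by ATF4. It was at 18.3, 28.5 and 17.3 CPM with agonist and 23.4, 15.5 and 23.6 with vehicle. Each group thus held 1 library apart from its other 2, a high one with agonist and a low one with vehicle. For Sesn2 the log2 fold change was 0.04 ± 0.26. Leaving out agonist replicate 2 gave -0.23 and leaving out vehicle replicate 2 gave -0.14, while the highest value was 0.17, without agonist replicate 3. The gene model Gm12981 shares 6089 bases of the Sesn2 span on the same strand.

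Xbp1, the target of IRE1 and a factor that secretory cells need, was abundant in all tumours. On chromosome 11 (5520659 to 5525893, plus strand) it had 941, 1281 and 1303 CPM with agonist and 883.8, 1282 and 1306 with vehicle. By CPM replicate 1 of each group was low and the other 2 libraries were high and close together, and the groups overlapped. By TPM Xbp1 had 612, 933 and 902 with agonist and 689, 723 and 946 with vehicle, so vehicle replicate 2 lay near replicate 1. Its log2 fold change was 0.02 ± 0.22 (95% interval -0.48 to 0.52), and ran from -0.14 without vehicle replicate 1 to 0.16 without agonist replicate 1. It was -0.05 when agonist replicate 2 was left out and -0.06 when agonist replicate 3 was. Counts per gene do not tell the spliced from the unspliced Xbp1 mRNA, so IRE1 activity was not measured.

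Hspa5 and Hsp90b1, both chaperones of the ER lumen, had higher means with agonist, within the spread between libraries. Hspa5 encodes BiP, the Hsp70 of the ER that holds the stress sensors inactive, and its promoter carries the ERSE printed above. It was at 1151, 1414 and 1042 CPM with agonist and 896, 1249 and 1002 with vehicle. The lowest agonist library lay below vehicle replicate 2. Means were 1202 ± 191 and 1049 ± 181 CPM (SD, n = 3). The fitted log2 difference was 0.20 ± 0.19 (95% interval -0.25 to 0.65, edgeR adjusted p = 0.99). With libraries left out it ran from 0.06 (without agonist replicate 2) to 0.34 (without vehicle replicate 2). Hsp90b1 encodes GRP94, the Hsp90 of the ER, whose promoter has the pair of ERSE matches. It had 1278, 1177 and 1037 CPM with agonist and 937, 1160 and 1007 with vehicle, for a log2 difference of 0.17 ± 0.16 (95% interval -0.21 to 0.55). Agonist replicate 3 lay below vehicle replicate 2 by CPM. By TPM every agonist library, at 523, 522 and 433, was above every vehicle library, at 429, 413 and 428. The gap was narrow, at 433 against 429 TPM. Over all genes 1351 of 17396 had groups that did not overlap on the TPM scale, in either direction. On that scale limma-trend gave a log2 difference of 0.21 ± 0.15 (adjusted p = 0.99). In the edgeR fits on counts, the log2 difference ran from 0.10 without agonist replicate 1 to 0.26 without vehicle replicate 2. The counts of Hsp90b1 were not whole and its span is shared in part with Gm15344 (977 bases) and Gm25745 (133 bases) on the same strand and with the pseudogene 1810014B01Rik (4598 bases) on the opposite strand, so they are less certain than those of Hspa5.

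Herpud1 encodes a membrane protein that gathers the ER-associated degradation complex, and its promoter is the only one of the 10 with both an ERSE-II and a C/EBP-ATF element. On chromosome 8 (94386438 to 94395377, plus strand) it had 79.4, 95.7 and 70.9 CPM with agonist and 74.8, 75.1 and 164 with vehicle. Vehicle replicate 3 stood 1.71-fold above any other library, and the other 5 ran from 70.9 to 95.7 CPM with the groups mixed. The fitted log2 difference was -0.35 ± 0.32 (95% interval -1.11 to 0.41), and it was 0.13 without vehicle replicate 3. The same library had the highest level of the ER co-chaperone Dnajb9, 119 CPM against 50.4 to 70.9 elsewhere, and of the angiogenic factor Vegfa. It also had the lowest sum of fibroblast markers. The wider lists that hold these 2 genes, described below, were not high there. Their mean deviations in log2 CPM were -0.12 (ER chaperones, as in agonist replicate 3) and -0.26 (ATF4 and CHOP targets, the lowest library). The part of tissue makeup in the Herpud1 level was not tested. Hspa5 and Hsp90b1 in that library, at 1002 and 1007 CPM, were inside the range of the others.

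**Figure D2:**
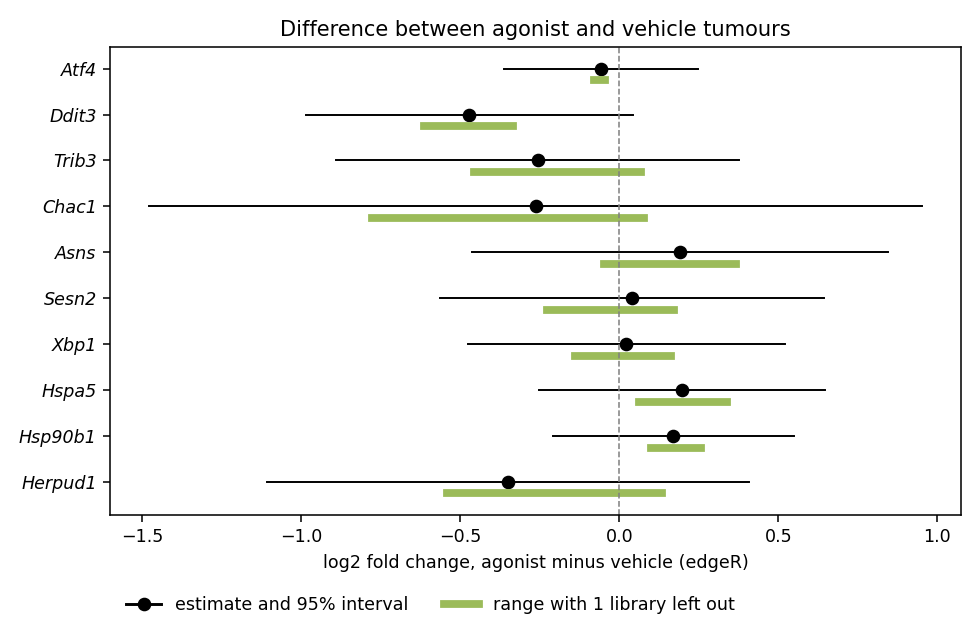
Log2 fold change of the 10 genes, agonist minus vehicle, with the 95% interval of the edgeR fit in black and the range of the estimate over the 6 fits that leave out 1 library in green. All 10 intervals cover 0, and only Ddit3, Atf4, Hspa5 and Hsp90b1 kept their sign in all 6 of those fits.

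Levels of different genes were compared per length, as TPM. Xbp1 had the highest median over the 6 libraries, 813 TPM with a range of 612 to 946, followed by Hspa5 at 503.9 (479 to 685) and Hsp90b1 at 431 (413 to 523). The ranges of these neighbours overlapped. Every Hsp90b1 level was above every Atf4 level, at 150.0 TPM (135 to 173), and every Atf4 level above those of Herpud1, at 57.2 (44.2 to 123). Asns at 36.59 TPM (24.8 to 55.2) overlapped with Herpud1 and with Ddit3 at 29.2 (22.6 to 45.9). Trib3 followed at 10.8 TPM (9.87 to 21.1), with every library below those of Ddit3. Its range overlapped that of Sesn2 at 6.98 TPM (4.37 to 10.04), and Chac1 was last at 1.26 TPM (0.54 to 1.98), below Sesn2 in every library. The median of Xbp1 was above that of 99.7% of all gene rows and that of Chac1 above 75.8%. Transcripts of Xbp1 and of the ER chaperones Hspa5 and Hsp90b1 were thus abundant in both groups. Those of Herpud1 and of the stress-induced targets of ATF4 and CHOP were scarcer.

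The genes did not move as 1 block over the 6 libraries. Of the 45 pairs among them, 24 had a positive and 21 a negative Pearson r of log2 CPM, with a median of 0.0632, all given as descriptions over 6 libraries that share groups and scaling. Agonist replicate 2 was the highest library for Asns, Chac1, Hspa5 and Sesn2 and the lowest for Ddit3 and Atf4. Vehicle replicate 1 was the lowest for Xbp1, Asns, Hspa5 and Hsp90b1 and the highest for Trib3 and Atf4. The most alike pairs were Asns with Hspa5 (r = 0.81) and Hspa5 with Hsp90b1 (r = 0.80). Ddit3 was at the other end, with r = -0.90 against Hspa5 and -0.71 against Hsp90b1, and was chosen for mention after these values were seen.

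**Figure D3:**
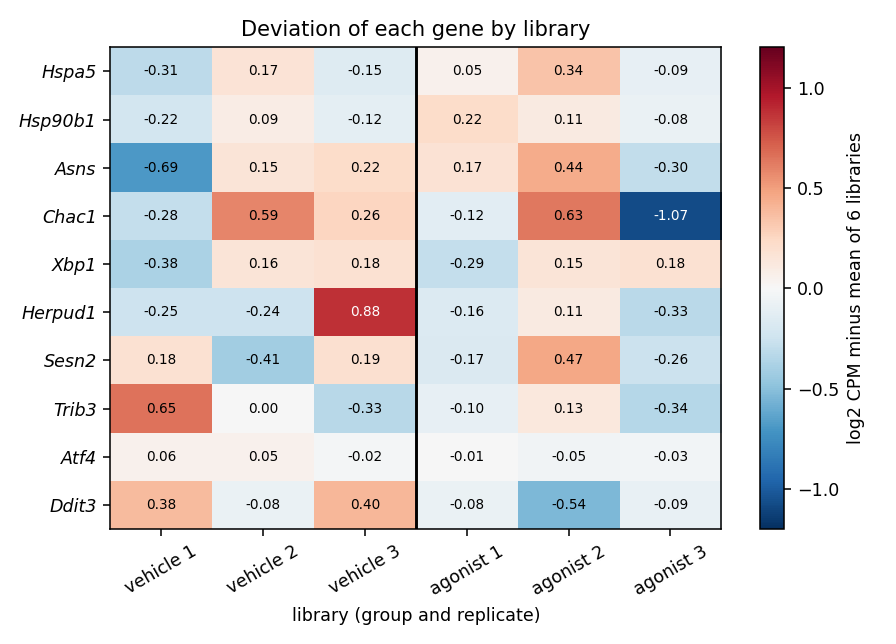
Log2 CPM of each gene minus its 6-library mean, with red above and blue below the mean and a black line between vehicle and agonist. The extremes sit in single libraries, as with Herpud1 at 0.88 in vehicle replicate 3 and Chac1 at -1.07 in agonist replicate 3.

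By TPM, Hspa5 and Ddit3 were at opposite extremes in agonist replicate 2 and in vehicle replicate 1, and by CPM only in agonist replicate 2. The ratio of Hspa5 to Ddit3 in TPM was 19.1, 30.3 and 16.8 in the agonist libraries and 10.4, 19.3 and 12.6 in the vehicle libraries. Vehicle replicate 2 lay within the agonist range, so the groups overlapped. On the log2(TPM + 1) scale the r between Hspa5 and Ddit3 was -0.71, and the Spearman rho was -0.71 on both scales. With the 2 libraries farthest from the median of Hspa5 left out, r over the remaining 4 was -0.65 in log2 CPM (vehicle replicate 1 and agonist replicate 2 left out). It was -0.68 in log2(TPM + 1), where agonist replicates 1 and 2 were farthest. These are too few for a test. Agonist replicate 2, the library with the highest ratio, also had the highest sum of plasma cell markers (152 CPM, led by Sdc1). It had the highest milk transcript sum as well (18340 CPM, against 9508 to 15890 elsewhere). Their part in the pattern was not tested.

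**Figure D4:**
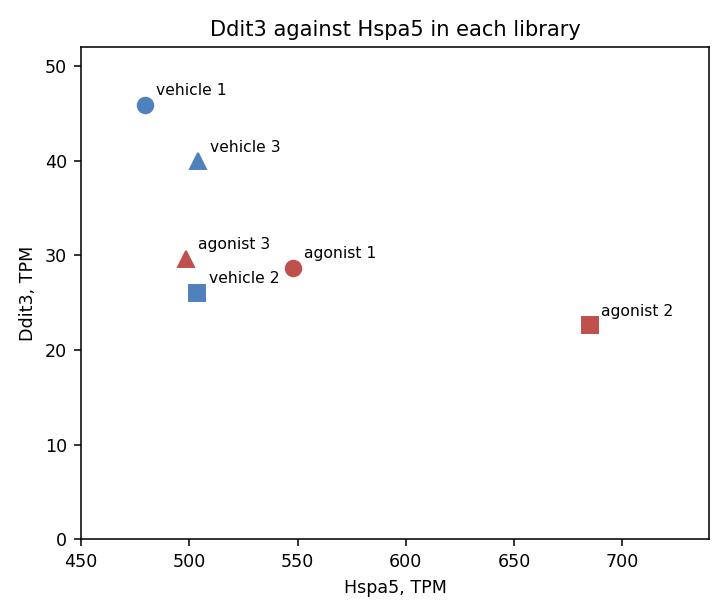
Ddit3 against Hspa5 in TPM, 1 point per library, coloured by group (the Hspa5 axis does not start at 0). Agonist replicate 2 has the most Hspa5 (685 TPM) and the least Ddit3 (22.6 TPM), and vehicle replicate 1 the reverse (479 and 45.9 TPM).

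The genes whose log2 CPM followed Ddit3 most closely over the 6 libraries, among 10797 with a mean log2 CPM of at least 3, were Rp9 (r = 0.99), Zkscan7 (0.98) and Tacr3 (0.97). For Hspa5 they were Crcp (0.99), Nus1 (0.98) and Ppfibp1 (0.98). With so many genes and 6 libraries, values of this size are a description of these samples.

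The other genes of the pathways stood on 7 lists, and 168 of their 171 distinct genes were tested. By edgeR 0 of them were called at an adjusted p under 0.05, as over all genes, and 2 of the 168, Vegfa and Trib1, had an unadjusted edgeR p under 0.05, beside 3.09% of all tested genes. Of the 24 tested sensors and regulators of eIF2, 8 had positive and 16 negative log2 fold changes (median -0.02). Every agonist library lay above every vehicle library for 2 of them and below for 2, beside 3.02% and 4.22% of all tested genes. Eif2b3, a subunit of the exchange factor that restores eIF2, had 24.3, 25.9 and 26.6 CPM with agonist and 16.8, 22.9 and 20.02 with vehicle (0.36 ± 0.17), with no overlap between groups. Atf6b, a relative of the sensor ATF6, was lower in all 3 agonist libraries at 43.5 to 57.7 against 61.8 to 64.5 CPM (-0.31 ± 0.15), as was the ER-bound factor Creb3l1 at 34.6 to 43.0 against 47.4 to 48.7 CPM (-0.26 ± 0.14). Eif2ak2, which encodes the kinase PKR, overlapped between groups (-0.27 ± 0.17).

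Targets of ATF4 and CHOP other than the 10 genes were balanced, with 18 of 39 positive and a median of -0.0088. The agonist libraries were all above the vehicle libraries for 3 of them and all below for 1, beside 3.02% and 4.22% of all tested genes. Vegfa, which hypoxia also induces, had 94.5, 74.6 and 62.6 CPM with agonist and 122, 105.5 and 251 with vehicle. It was lower in 3 of 3 agonist libraries, by -1.05 ± 0.35 on the log2 scale (edgeR adjusted p = 0.99). Atf3, a stress-induced repressor, was at -0.69 ± 0.35 with 46.0 CPM in vehicle replicate 2 and 15.8 to 21.8 elsewhere. On the other side were Mthfd2, a mitochondrial folate enzyme, with 10.5 to 13.0 against 7.24 to 8.94 CPM (0.48 ± 0.23), and Psph, the last enzyme of serine synthesis, with 18.9 to 22.0 against 14.9 to 18.3 (0.30 ± 0.17), both higher in all 3 agonist libraries. Of the 20 tRNA synthetases, many of them ATF4 targets, 14 were positive (median 0.08), and groups did not overlap for 1, which was lower. Gars was at 0.32 ± 0.18, Farsb at 0.29 ± 0.22 and Eprs at 0.23 ± 0.15, each with overlapping groups, while Vars was lower in all 3 agonist libraries (-0.37 ± 0.18).

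The chaperones and folding enzymes of the ER went both ways, with 18 of 29 positive and a median of 0.04. All agonist libraries were above all vehicle libraries for 3 of them and below for 1, beside 3.02% and 4.22% of all tested genes. Pdia4, a disulphide isomerase, had 295, 261 and 230 CPM with agonist and 196, 222 and 212 with vehicle, higher in all 3 (0.32 ± 0.16). P4hb, the most general enzyme of that family, was lower in all 3, at 822.1, 882 and 887 against 1041, 954 and 1125 CPM (-0.27 ± 0.15). Dnajb9 (-0.46 ± 0.26) and Txndc11 (-0.22 ± 0.16) had overlapping groups. ER-associated degradation was split at 12 and 12 with a median of -0.0020. Within it the lectin Os9 was at -0.35 ± 0.16, Edem2 at -0.28 ± 0.19, Nploc4 at -0.21 ± 0.14 and Erlec1 at 0.27 ± 0.19, and none of these 4 separated the groups. Elsewhere on this list 1 gene of 24 did, with the agonist libraries higher.

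The translocon and the COPII coat, through which new proteins enter and leave the ER, had 19 of 24 positive log2 fold changes and a median of 0.12, beside 49.3% positive and a median of -0.0049 over all tested genes. With 1 library left out the median ran from 0.06 to 0.17. Sec13 (0.33 ± 0.18), Sec23a (0.25 ± 0.18), Sec61b (0.20 ± 0.14) and Ssr1 (0.17 ± 0.14) had the smallest unadjusted p. Of these Ssr1 had groups that did not overlap, at 258 to 279 CPM with agonist and 233 to 248 with vehicle. Over the list, every agonist library lay above every vehicle library for 4 of 24 genes and below for 0. The shares of all tested genes were 3.02% and 4.22%, and the difference was not tested. The mean deviation of the list was 0.15 in agonist replicate 2, 0.02 in agonist replicate 3 and -0.0093 in agonist replicate 1, and 0.09, -0.08 and -0.17 in vehicle replicates 2, 3 and 1, so the groups overlapped. Among 12 paralogues of the 10 genes 10 were positive (median 0.10), and 0 of the 12 had groups without overlap. Trib1, a pseudokinase related to Trib3, was negative, with 151, 168 and 137 CPM against 305, 157 and 298 (-0.74 ± 0.26, edgeR adjusted p = 0.99). Its groups overlapped through vehicle replicate 2, which also had the lowest vehicle level of Ddit3. Trib2 (0.48 ± 0.37), Chac2 (0.29 ± 0.28) and Hsp90aa1 (0.21 ± 0.18) had overlapping groups.

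**Figure D5:**
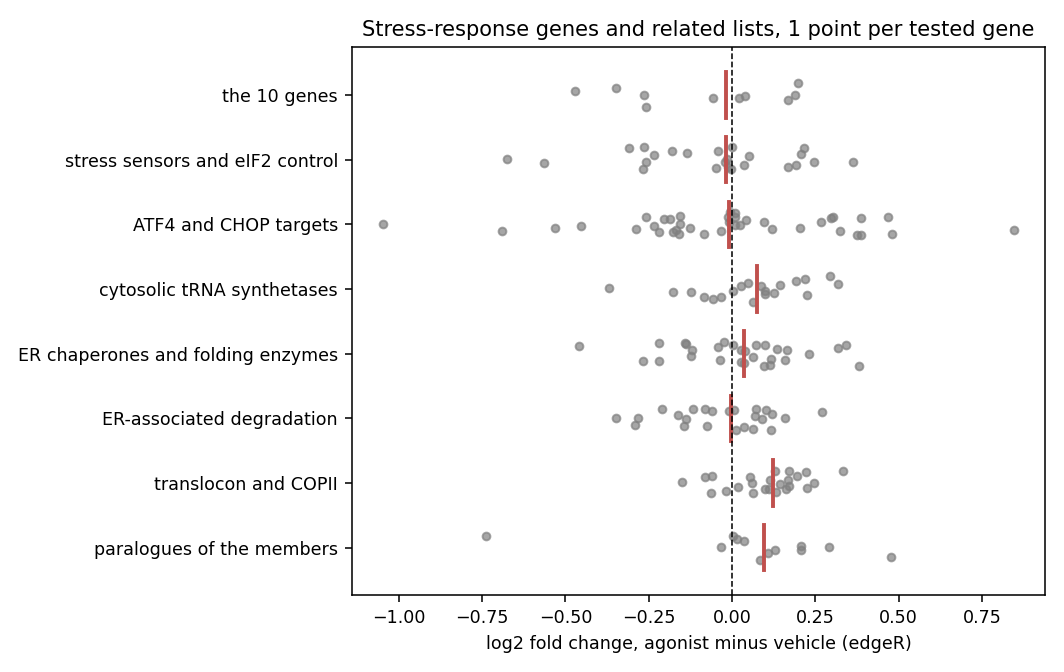
Log2 fold change, agonist minus vehicle, of the 10 genes and of each tested gene of the 7 related lists, 1 point per gene with random vertical offsets and the list median in red. Medians lie between -0.02 and 0.12, and Vegfa, at -1.05, is the lowest point.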

How the data were processed

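RNA of 6 mammary tumour libraries, 3 per group, was quantified per gene. The deposited tables hold RSEM expected counts and TPM, both from the authors' RSEM run. The deposited FPKM were not used. Per the submitters' processing notes the build was GRCm38 and the tools were RSEM 1.3.1, STAR 2.7.9a, cutadapt 3.5, FastQC 0.11.9, R 4.1 and DESeq2 1.36.0. For annotation release and strand setting the sources used here give nothing, so overlapping genes cannot be told apart. Of 55487 row identifiers, 55141 were in GENCODE M21. Between 10.1% and 10.5% of the expected counts in a library were not whole, and all were rounded.

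The test was edgeR 4.0.16 (R 4.3.3) with TMM, filterByExpr (minimum count 10, minimum total 15), robust dispersions and a quasi-likelihood F test between groups. Adjusted p-values are Benjamini-Hochberg over all 17396 tested genes, called under 0.05. The script was tested on simulated data. SEs are the log2 fold change over the root of F. Library deviations use log2 CPM with a prior count of 2. At this depth 3 counts are 0.0704 to 0.082 CPM, counting error only.

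The genes and lists were chosen with earlier results of these data known. The named genes are the 10, 4 per list by smallest unadjusted p, and 3 most like Ddit3 and Hspa5 each. Alternatives were DESeq2 1.42.0, limma 3.58.1 (voom with quality weights; trend on log2(TPM + 1)), 2 other scalings, 2 other filters, the replicate block and each library left out. Promoters are from RefSeq (GRCm38.p6), where all 10 genes matched.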

Additional observations from a re-analysis of the deposited data

How the results depend on the processing

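Of 140 values of the 10 genes under 14 alternatives, 130 kept their direction and none crossed the threshold, since no gene was called under any. Of the 10 that turned sign, 9 were from fits with a library left out, for which the ranges were -0.048 to 0.37 (Asns), -0.78 to 0.077 (Chac1), -0.54 to 0.13 (Herpud1), -0.23 to 0.17 (Sesn2), -0.46 to 0.068 (Trib3) and -0.14 to 0.16 (Xbp1), and 1 was from limma-voom, for Sesn2 (-0.14). The cause was not tested. At an unadjusted p under 0.05, 1 of the 10 genes, Ddit3, was found with limma-voom, with the replicate number as a block and without vehicle replicate 2, and 0 to 1 over all fits with a library left out. Whether the replicate numbers pair the samples could not be settled with 3 libraries per group. The correlations of deviations of same-numbered libraries were 0.17, 0.04 and 0.06, and those of other pairs -0.11 to 0.05. Agonist replicate 2 correlated best with vehicle replicate 3 (0.05). The block called 0 genes at an adjusted p under 0.05. Groups that did not overlap were found for 0 of the 10 genes with DESeq2 size factors, upper-quartile factors, no filter, the stricter filter and DESeq2. Over all genes the counts in these settings were, in the same order, 1271, 1357, 1851, 1087 and 1842. Tested genes numbered 17396 with either set of factors, 29166 with no filter, 14488 with the stricter filter and 29069 with DESeq2. For the 10 genes the count was 1 to 3 with a library left out, where fewer samples make separation easier. It was 3 without vehicle replicate 2, with Ddit3 lower and Hspa5 and Hsp90b1 higher in every agonist library. Over all genes 5922 of 17963 did not overlap in that fit. Vehicle replicate 2 had the lowest limma-voom quality weight, 0.487 against 0.802 to 2.53 elsewhere. Over all genes DESeq2 called 5. Counts at an unadjusted p under 0.05 were 1210 with limma-voom and 488 with the replicate block, against 538. Without a filter, where more genes were tested, the count was 847. With a library left out it ran from 315 (without agonist replicate 3) to 2442 (without vehicle replicate 2). Genes without overlap numbered 2148 to 5922 with a library left out, against 1260. The median of the degradation list ran from -0.0509 to 0.0091 with a library left out. Depth limits Chac1, at 29 to 97 counts.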
